A study of Gossypium hirsutum with 6 samples.

Results

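The transcripts described here stood apart in the stem apex of a tall-culm mutant of cotton, while a dwarf mutant and the wild type were alike. Levels are in RPKM, the reads of a transcript scaled by its length and by the reads mapped in the library. A transcript belonged to the set when its mean over the mRNA libraries of the 3 lines (A3, A1 and A9: the tall-culm mutant, the dwarf and the wild type) was 8 RPKM or more, when A1 over A9 lay within 1.4-fold in either direction, and when A3 differed from A9 and from A1 by 1.8-fold or more in the same direction. The members were thus chosen by the RPKM values of A3, A1 and A9 themselves, so the size and direction of the differences describe how the set was chosen. Of 156846 assembled transcripts, 19376 reached the mean and 14586 of these had A1 and A9 alike (75.3%). The rule found 59 transcripts, of which 27 were raised in A3 (0.139% of the 19376) and 32 were lowered in A3 (0.165%).

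The lines were the tall-culm mutant Ari3697 (A3), the dwarf mutant Ari1327 (A1) and the wild type Ari971 (A9), all upland cotton (Gossypium hirsutum). Both mutants were derived from Ari971 by gamma-ray irradiation, and each stands here for 1 irradiated line. Loci changed in the mutants were not analysed here. Stem apexes of greenhouse-grown seedlings were harvested when the fifth true leaf was out, and the labels name no treatment beyond this. With a single mRNA library from each line, the differences have no replicate check and no test was made. The methods and the labels also speak of equal amounts of RNA of the lines being pooled before library construction, whereas the genotype labels give each library to 1 line, which is how the libraries were read here.

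Plant height in cotton is set largely by growth at the stem apex, where the shoot meristem forms new leaves and internodes and the cells below it divide and elongate. Auxin, gibberellin, brassinosteroid and abscisic acid act on this growth, and cell wall synthesis accompanies elongation.

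**Figure D1:**
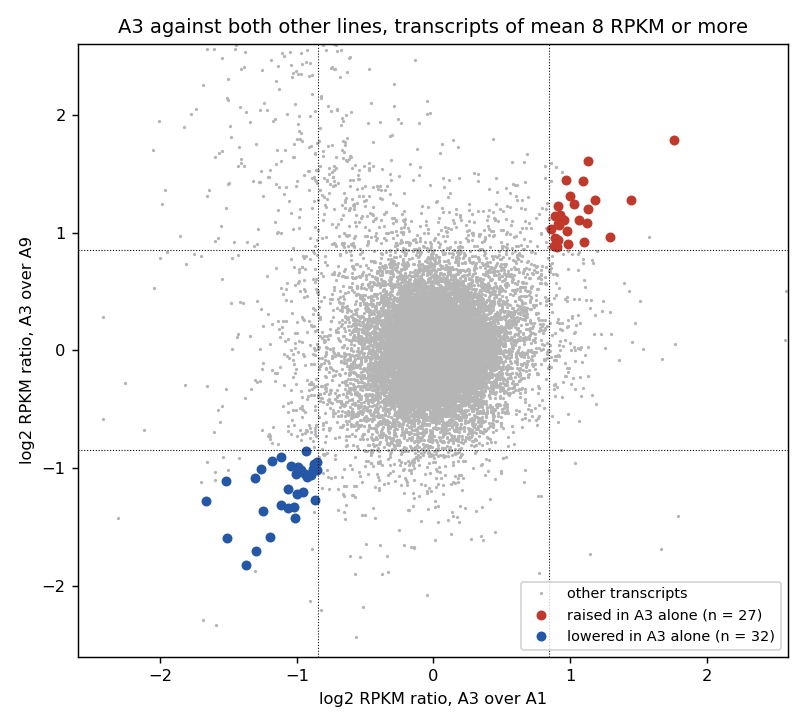
Log2 RPKM ratio of A3 over A9 (vertical axis) against that of A3 over A1 (horizontal axis) for 19297 of the 19376 transcripts with a mean of 8 RPKM or more, with dotted lines at 1.8-fold. The 27 raised transcripts (red) sit in the upper right and the 32 lowered ones (blue) in the lower left, and grey points in the same corners had A1 and A9 further apart than 1.4-fold.

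The transcripts of the files are products of a de novo assembly, named by component and sequence number, where a component gathers the assembled transcripts that could be variants of 1 gene or close copies of it. Upland cotton is an allotetraploid, so copies of a gene from its ancestral genomes can fall into 1 component. The files do not pair the names with genes. The supplementary tables of the study give functions for some predicted targets of miRNAs, and none of the 59 transcripts, nor any transcript of their components, is among the 512 listed targets. No transcript name matched the RefSeq gene table. The transcripts are therefore described by their levels and by the behaviour of their components, and no sequence or role is given for them.

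The raised transcripts spanned 12.3 to 176 RPKM in A3 (median 23.4), 5.76 to 90.7 RPKM in A1 (median 10.3) and 5.68 to 81.9 RPKM in A9 (median 9.78). Their median log2 ratio was 1.10 for A3 over A9 (range 0.88 to 1.79) and 0.98 for A3 over A1 (range 0.86 to 1.76). Over all 19376 transcripts the medians were -0.00 and 0.01. Most of the raised set was thus about 2-fold higher in A3, and few transcripts went far beyond that.

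The transcript furthest from the other lines was comp37900_c0_seq1, the single transcript of its component. It had 33.7 RPKM in A3, 9.93 RPKM in A1 and 9.78 RPKM in A9, which put A3 higher by 3.40-fold over A1 and 3.45-fold over A9. The dwarf and the wild type nearly coincided at this transcript, and no other raised transcript exceeded 2.42-fold over both. The next, comp34226_c0_seq3, had 28.1 RPKM in A3, 10.3 RPKM in A1 and 11.6 RPKM in A9. In comp37692_c0_seq1 the levels were 22.4 RPKM in A3, 9.88 RPKM in A1 and 9.25 RPKM in A9. These sat at moderate levels in A3 and close to 10 RPKM in both other lines.

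Several raised transcripts were abundant. The highest in A3 was comp12927_c0_seq1, with 176 RPKM in A3, 90.7 RPKM in A1 and 81.9 RPKM in A9. Second came comp31518_c0_seq1, at 169 RPKM in A3, 77.2 RPKM in A1 and 79.6 RPKM in A9. At comp34704_c0_seq1 A3 had 137 RPKM, A1 62.5 RPKM and A9 44.8 RPKM. A1 and A9 were close to each other at comp12927_c0_seq1 and comp31518_c0_seq1, whereas at comp34704_c0_seq1 A1 lay above A9 by 1.39-fold, just inside the limit. These 3 transcripts had means of 50 RPKM or more and were the single transcripts of their components. The next levels in A3 were 57.0 RPKM for comp16062_c0_seq1, against 30.8 RPKM in A1 and 29.4 RPKM in A9. For comp50214_c0_seq1 they were 38.1 RPKM in A3, 19.3 RPKM in A1 and 20.3 RPKM in A9. Both were nearly 2-fold higher in A3, with the other lines side by side.

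Low transcripts were also among the 10 raised ones with the widest margins. At comp20630_c0_seq1 the levels were 14.3 RPKM in A3, 6.52 RPKM in A1 and 6.19 RPKM in A9. For comp33494_c0_seq2 they were 16.7 RPKM in A3, 7.81 RPKM in A1 and 6.17 RPKM in A9. The transcript comp19280_c0_seq1 had 14.5 RPKM in A3, 7.25 RPKM in A1 and 5.85 RPKM in A9. These would not have reached 8 RPKM on A1 and A9 alone, which was true of 9 of the 27 raised transcripts, so their place in the set rests on the A3 library. A further pair among the largest differences, comp46765_c0_seq11 and comp51816_c0_seq1, lay at 23.4 and 24.5 RPKM in A3, at 11.2 and 12.0 RPKM in A1 and at 10.9 and 10.4 RPKM in A9.

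The lowered transcripts spanned 3.99 to 65.1 RPKM in A3 (median 6.45), 9.05 to 129 RPKM in A1 (median 13.6) and 9.55 to 129 RPKM in A9 (median 14.2). Their median log2 ratio was -1.08 for A3 over A9 (range -1.82 to -0.85) and -1.02 for A3 over A1 (range -1.66 to -0.85). None was listed at 0 in A3. The set was a partial lowering throughout, and 20 of the 32 lay under 8 RPKM in A3.

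The lowered transcript with the widest margin was comp55866_c0_seq1, with 5.03 RPKM in A3, 14.3 RPKM in A1 and 15.2 RPKM in A9. Its ratios were 0.351 for A3 over A1 and 0.332 for A3 over A9. Next was comp44980_c0_seq1, at 3.99 RPKM in A3, the lowest A3 level of the set, 10.3 RPKM in A1 and 14.1 RPKM in A9. At comp29853_c0_seq1 A3 had 4.58 RPKM, A1 11.3 RPKM and A9 14.9 RPKM. In both of these A1 lay between A3 and A9, so the tall mutant was further from the wild type than from the dwarf. The opposite order held at comp42660_c0_seq1, where A3 had 10.5 RPKM, A1 33.4 RPKM and A9 25.6 RPKM, and at comp14916_c0_seq1, where A3 had 4.44 RPKM, A1 12.7 RPKM and A9 9.55 RPKM. At comp21922_c0_seq1, with 9.08 RPKM in A3, 22.4 RPKM in A1 and 19.2 RPKM in A9, the dwarf was again the highest. The dwarf and the wild type thus took either order while both stayed above A3.

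Of the other lowered transcripts with the widest margins, comp36601_c0_seq1 had 5.55 RPKM in A3, 13.2 RPKM in A1 and 14.3 RPKM in A9. At comp25455_c0_seq1 the levels were 4.65 RPKM in A3, 9.74 RPKM in A1 and 10.5 RPKM in A9. For comp10623_c0_seq1 they were 4.15 RPKM in A3, 9.49 RPKM in A1 and 12.4 RPKM in A9. All of these were low transcripts, as most of the lowered set was. An exception was comp16239_c0_seq1, at 16.6 RPKM in A3, 35.9 RPKM in A1 and 41.3 RPKM in A9.

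The most abundant lowered transcript by far was comp41185_c0_seq2, with 65.1 RPKM in A3 and 129 RPKM in both A1 and A9. It was the single lowered transcript with a mean of 50 RPKM or more. At comp48837_c0_seq1 A3 had 24.8 RPKM, A1 47.3 RPKM and A9 51.8 RPKM. Likewise, comp48608_c0_seq1 had 21.8 RPKM in A3, 45.0 RPKM in A1 and 43.2 RPKM in A9. In each of these A1 and A9 were nearly equal and A3 stood about 2-fold below them.

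**Figure D2:**
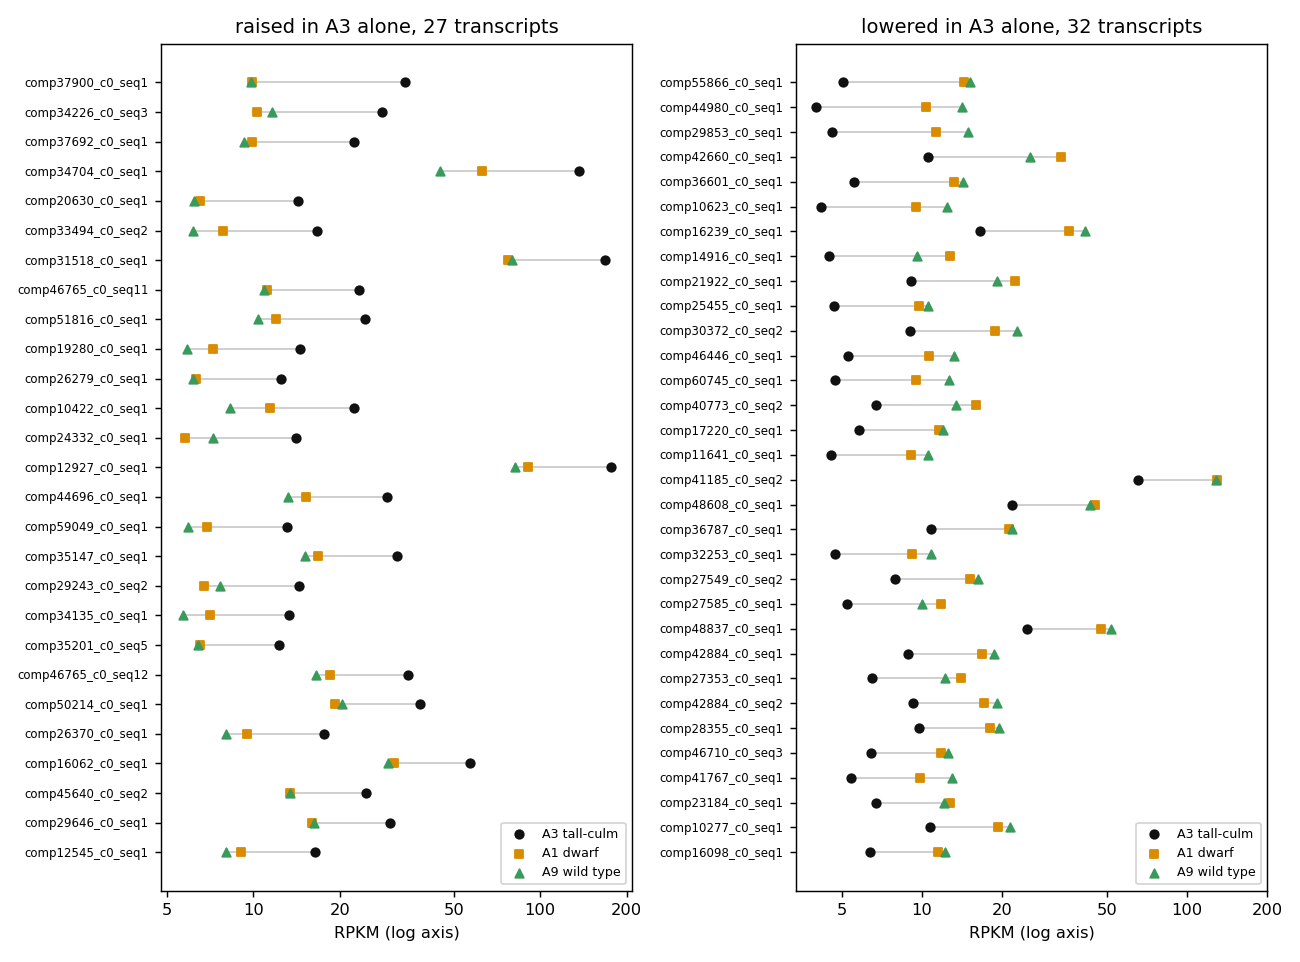
RPKM (log axis) of each raised transcript (left) and each lowered transcript (right) in A3 (black circles), A1 (orange squares) and A9 (green triangles), 1 library each, ordered from the widest margin at the top. Raised transcripts reached 12.3 to 176 RPKM in A3 and lowered ones 3.99 to 65.1 RPKM in A3, and the A1 and A9 points of a transcript lie close together by the rule.

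The edge of the set was not a gap. Just inside the limit were comp12545_c0_seq1, raised 1.82-fold at the smaller of its 2 differences, and comp29646_c0_seq1, at 1.84-fold. Just outside it were comp27641_c0_seq1, with 18.2 RPKM in A3, 9.21 RPKM in A1 and 10.2 RPKM in A9, and comp15424_c0_seq1, with 12.5 RPKM in A3, 6.94 RPKM in A1 and 5.74 RPKM in A9, which reached 1.795-fold and 1.794-fold. Among the lowered, comp16098_c0_seq1 (6.35 RPKM in A3, 11.5 RPKM in A1 and 12.2 RPKM in A9) and comp10277_c0_seq1 (10.7 RPKM in A3, 19.3 RPKM in A1 and 21.5 RPKM in A9) were inside. The transcripts comp27600_c0_seq1 (5.14 RPKM in A3, 9.22 RPKM in A1 and 9.76 RPKM in A9) and comp28439_c0_seq1 (8.31 RPKM in A3, 15.6 RPKM in A1 and 14.9 RPKM in A9) missed it at 1.79-fold. The mean mattered as well, since 12 of the 59 had means under 9 RPKM. A further 9 raised and 22 lowered transcripts passed both A3 differences and were left out by the comparison of A1 with A9.

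Some of those left out were all but absent from 1 side, and they are named here after their values were seen. The transcript comp19405_c0_seq2 had 24.4 RPKM in A3 and was listed at 0 in both A1 and A9, where a ratio of A1 to A9 does not exist. Similarly, comp42267_c0_seq1 had 39.8 RPKM in A3, 0.13 RPKM in A1 and was listed at 0 in A9. Each had other transcripts in its component that were not absent. The rest of comp19405 was 0.97 RPKM in A3, 3.25 RPKM in A1 and 1.24 RPKM in A9, and the rest of comp42267, which holds 37 transcripts in all, was 152 RPKM in A3, 123 RPKM in A1 and 112 RPKM in A9. On the lowered side, 5 were listed at 0 in A3. Both transcripts of comp10028 were at 0 in A3, while A1 had 25.7 RPKM of the first and 27.8 RPKM of the second, and A9 had 11.1 RPKM of the first and 10.4 RPKM of the second. At comp18167_c0_seq1, the single transcript of its component, A3 was at 0, A1 at 16.3 RPKM and A9 at 11.4 RPKM. The rule for the 59 thus passed over the differences closest to presence and absence.

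The rule did not fix on which side of A9 the dwarf fell. A1 was above A9 in 21 of the 27 raised transcripts (77.8%) and in 9 of the 32 lowered ones (28.1%), compared with 45.6% of the 14586 transcripts whose A1 and A9 were alike. The members were chosen by these same A3, A1 and A9 values, whereas the 14586 were not chosen by A3. The shares therefore describe the chosen set, and no trait of the dwarf is read from them. Among the transcripts left out by the 1.4-fold limit the lowered ones had the opposite order, with A1 above A9 in 15 of 22. Of the 9 raised ones left out, A1 was above A9 in 5, below it in 3 and level with it at 0 in 1. The 3 ratios of a transcript share libraries, and these shares were not tested.

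Set against the same limits turned to the other lines, the A3 sets were the smallest. The 27 raised and 32 lowered in A3 compare with 88 raised (0.454%) and 77 lowered (0.397%) in A1 while A3 and A9 were alike. Turned to A9, the limits gave 128 raised (0.661%) and 201 lowered (1.04%) while A3 and A1 were alike. The margins, which the same limits cut at 1.8-fold in each set, had slightly lower medians in A3, and this gap was not tested. The smaller of the 2 differences had a median of 1.94-fold in the raised and 1.99-fold in the lowered transcripts of A3, compared with 2.02-fold and 2.05-fold in A1 and 2.04-fold and 2.08-fold in A9. Transcripts with a margin of 2-fold or more numbered 10 raised and 16 lowered in A3, compared with 51 and 44 in A1 and 68 and 117 in A9. The 3 sets share the same 3 libraries. Among all transcripts of the minimum mean, 3.55% were 1.8-fold or more higher and 1.63% lower in A3 than in A9, while 0.965% were higher and 2.23% lower in A3 than in A1.

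**Figure D3:**
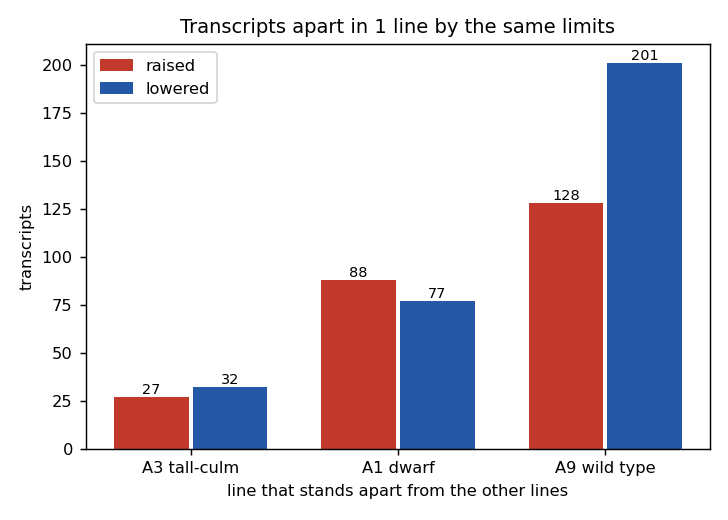
Number of transcripts (vertical axis) that stood apart in 1 line while the other lines were alike, raised (red) and lowered (blue), under the same limits for A3, A1 and A9, 1 library each. A3 had 27 raised and 32 lowered, A1 88 and 77, and A9 128 and 201.

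The share of transcripts that stood apart in A3, in either direction, was higher among low transcripts. It was 0.444% at means of 8 to 10 RPKM, 0.310% at 10 to 20 RPKM, 0.200% at 20 to 50 RPKM and 0.211% at 50 RPKM or more. Of the raised transcripts 8 had means under 10 RPKM, and of the lowered 11. Fewer reads lie behind a low value, and its part in these counts was not tested.

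Most of the transcripts stood alone in their components. A single transcript made up the component of 17 of the 27 raised transcripts (63.0%) and of 20 of the 32 lowered ones (62.5%), compared with 32.8% of all transcripts of the minimum mean. The share was 38.6% and 49.4% in the raised and lowered transcripts of A1, and 51.6% and 42.3% in those of A9. The 59 transcripts came from 26 components with raised and 31 with lowered transcripts, and no component held both.

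A pair of components gave more than 1 transcript to the set. In comp42884 both assembled transcripts were lowered, the one with 8.86 RPKM in A3, 16.8 RPKM in A1 and 18.7 RPKM in A9, and the other with 9.23 RPKM in A3, 17.2 RPKM in A1 and 19.2 RPKM in A9. Their values were close to each other in every line, and transcripts of a component can share reads. In comp46765, 2 of 12 transcripts were raised. The other 10 summed to 51.6 RPKM in A3, 32.8 RPKM in A1 and 32.9 RPKM in A9, which is 1.58-fold over A1 and 1.57-fold over A9. The remainder of that component was thus higher in A3 as well, below the limit.

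The rest of a component was not used by the rule, but it can share reads with the transcript that was. It could be read for 9 components with raised and 10 with lowered transcripts. The summed rest was higher in A3 than in both other lines in 6 of the 9 raised components and lower than in both in 2. It was lower in A3 than in both other lines in 9 of the 10 lowered components. These counts go by sign alone and take in small gaps, such as 4.13 RPKM in A3 and 4.23 RPKM in A1 for the rest of comp32253. The matching shares over all components were not worked out, so the counts have no background beside them. By size, the rest passed 1.8-fold against both lines in 2 raised and 2 lowered components, lay within 1.4-fold of both in 5 raised and 4 lowered ones, and fell between these in 2 raised and 4 lowered ones.

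Components whose rest differed as their transcript did were found in both directions. In comp35201 the rest summed to 27.6 RPKM in A3, 15.3 RPKM in A1 and 13.1 RPKM in A9, beside a raised transcript of 12.3, 6.51 and 6.42 RPKM in the same lines. In comp45640 the rest was 36.7 RPKM in A3, 18.4 RPKM in A1 and 20.4 RPKM in A9. Among the lowered, the rest of comp44980 was 1.67 RPKM in A3, 5.46 RPKM in A1 and 7.36 RPKM in A9. In these components the difference was in the sum as well as in 1 assembled transcript. The abundant lowered comp41185_c0_seq2 had 1 partner transcript, with 117 RPKM in A3, 182 RPKM in A1 and 205 RPKM in A9, which was also lowest in A3.

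In other components it was the share of the transcript that differed. The raised comp33494_c0_seq2 made up 55.1% of its component in A3, 30.3% in A1 and 27.8% in A9, while its rest was lowest in A3, at 13.7 RPKM in A3, 17.9 RPKM in A1 and 16.0 RPKM in A9. The share of comp35147_c0_seq1 was 55.8% in A3, 36.8% in A1 and 32.0% in A9, with a rest of 25.1 RPKM in A3, 28.8 RPKM in A1 and 32.2 RPKM in A9. For comp34226_c0_seq3 it was 66.8% in A3, 44.5% in A1 and 44.9% in A9, and its rest was nearly level at 13.9 RPKM in A3, 12.9 RPKM in A1 and 14.2 RPKM in A9. In these components the rest was not higher in A3 than in both other lines. Each share holds the value by which its transcript was chosen, so with such a rest it differs in A3 by the rule. Transcripts of a component can share reads, and the part of this in the shares was not tested.

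Shares also differed among lowered transcripts, and the choice of the transcripts enters these in the same way. At comp40773_c0_seq2 the share was 48.9% in A3, 65.2% in A1 and 64.0% in A9, beside a rest of 6.98 RPKM in A3, 8.56 RPKM in A1 and 7.54 RPKM in A9. In comp46446_c0_seq1, 1 of 19 transcripts of its component, the rest and the transcript differed in direction against A9. It had 5.23 RPKM in A3, 10.6 RPKM in A1 and 13.2 RPKM in A9. The other 18 summed to 119 RPKM in A3, 130 RPKM in A1 and 102 RPKM in A9, so that the component as a whole was slightly higher in A3 than in A9. This lowered transcript was a small part of its component in every line, 4.20% in A3, 7.55% in A1 and 11.5% in A9.

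**Figure D4:**
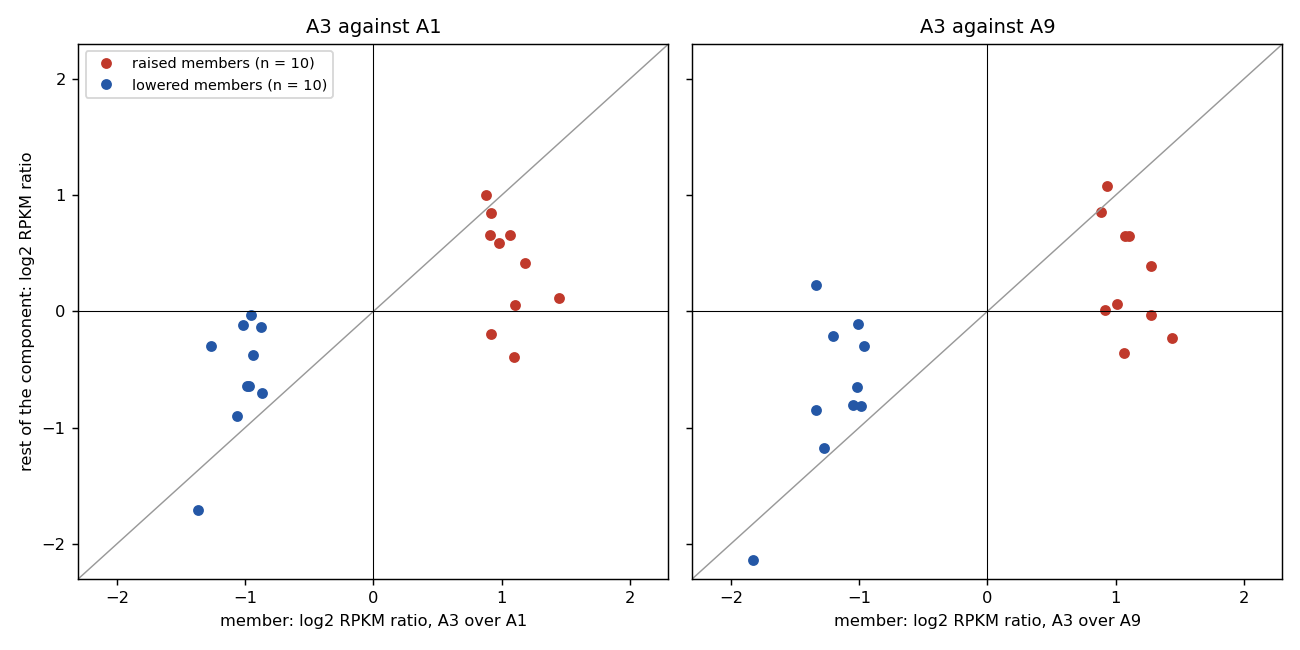
Log2 RPKM ratio of A3 over A1 (left) and A3 over A9 (right) for the transcript (horizontal axis) and for the summed rest of its component (vertical axis), for the 10 raised (red) and 10 lowered (blue) transcripts whose components hold others. The diagonal marks equal ratios, and the horizontal zero line marks a level rest. In 5 raised and 4 lowered components the rest lay within 1.4-fold of both other lines.

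Genes of height pathways could be followed only where the supplementary tables name a function. Of the 512 listed transcripts 151 had a mean of 8 RPKM or more, and 0 of the 151 belonged to the raised or lowered set, beside 0.139% and 0.165% of all transcripts of that mean. With shares this small, 0 of 151 is near the background and is no result about any pathway. The 151 held 5 hormone pathway transcripts, 4 of cell wall and phenylpropanoid enzymes and 13 transcription regulators. They also held 8 of ribosome and translation, 9 plastid ones, 3 protein kinases and 1 of defense. These lists overlap, so a transcript can count in several. The 5 hormone pathway transcripts are listed as transport inhibitor response 1, a cytochrome P450 beta-ring hydroxylase, zeaxanthin epoxidase, brassinosteroid resistant 1/2 and an EREBP-like factor. They had a median log2 ratio of -0.27 for A3 over A9 and 0.08 for A3 over A1, which describes these listed targets alone. The cell wall and phenylpropanoid enzymes had medians of -0.07 and 0.24. The transcription regulators had -0.02 and -0.00, near those of all transcripts.

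A wider limit took in some of the listed transcripts. With 1.5-fold in place of 1.8-fold, 2 of the 151 entered (1.32%), beside 1.24% of all 19376 transcripts at that limit, so the listed transcripts entered at about the background share. The first was comp43043_c0_seq2, listed as cellulose synthase A, a catalytic subunit of the complex that makes cellulose at the plasma membrane, at 25.2 RPKM in A3, 15.5 RPKM in A1 and 15.6 RPKM in A9. It was 1.62-fold over A1 and 1.61-fold over A9. The second was comp43773_c0_seq1, listed as 3'-phosphoadenosine 5'-phosphosulfate synthase, an enzyme of sulfate activation, at 21.1 RPKM in A3, 31.7 RPKM in A1 and 36.8 RPKM in A9. Its ratios were 0.665 for A3 over A1 and 0.573 for A3 over A9. Both were named here after their values were seen. Without a minimum mean, 17 of 495 listed transcripts above 0 in A1 and A9 passed the limits (3.43%), beside 4.35% of all 146790 such transcripts, and their means were 2.40 RPKM or less. The highest of them, comp18235_c0_seq1, had 4.07 RPKM in A3, 1.32 RPKM in A1 and 1.82 RPKM in A9, and has no listed function. At these levels few reads lie behind a value.

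The supplementary tables list comp43773_c0_seq1 as a predicted target of the small RNA ghr-m1777-3p. The pair is shown because it belongs to the listed transcript that entered on the lowered side, with the seed of the small RNA (bases 2 to 8 from its 5′ end) and the bases of the site that face it in capitals.
ghr-m1777-3p: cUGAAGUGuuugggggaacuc
site in comp43773_c0_seq1: gaguuccuccaaaCUCUUCAu
Over 21 bases there were 18 Watson-Crick pairs, 1 GU pair and 2 other mismatches. Of these mismatches 1 lies within the capitals, where a U of the seed faces a U of the site. The match is a description of the listed sequences, and the levels of the small RNA were not analysed here.

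The listed functions gave a limited check of the tissue. Tubulin beta, a cytoskeletal protein of dividing and growing cells, had 40.5 RPKM in A3, 32.6 RPKM in A1 and 53.2 RPKM in A9. Cyclin A, a regulator of the cell cycle, had 5.31 RPKM in A3, 6.83 RPKM in A1 and 5.0 RPKM in A9, under the minimum mean of 8 RPKM. Homeobox-leucine zipper proteins are transcription factors, some of which act in the shoot meristem. Of the listed ones comp31698_c0_seq1 had 23.4 RPKM in A3, 24.5 RPKM in A1 and 24.3 RPKM in A9. The other, comp45076_c0_seq1, had 13.4 RPKM in A3, 11.04 RPKM in A1 and 13.5 RPKM in A9, so both were nearly level. Photosystem II 22kDa protein, a protein of green tissue, had 32.9 RPKM in A3, 28.1 RPKM in A1 and 63.1 RPKM in A9. Transcripts of green tissue and of dividing cells were thus detected in the 3 libraries, and no other cell type could be checked. The photosystem and the tubulin beta transcripts were each lower in both mutants than in the wild type. The limit on A1 against A9 keeps such a pattern out of the 59 transcripts by rule. The part of tissue composition in the A3 differences was not tested. Fewer cells of a type and less RNA per cell cannot be told apart in such samples.

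The libraries themselves were alike in scale. The RPKM values summed to 798674 in A3, 805778 in A1 and 800227 in A9, and 5712 transcripts in A3, 5633 in A1 and 4963 in A9 were at 0. The median log2 ratios over all transcripts of the minimum mean, given above, were close to 0. The files hold no read numbers, so the depth behind a single value is unknown.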

How the data were processed

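Stem apex mRNA was measured in 1 library per line. After trimming and quality filtering, the authors built 1 joint assembly from all libraries with Trinity. They deposited 1 RPKM value per transcript and line, to 2 decimals. The read mapper and the treatment of reads that match several transcripts are not given in the sources used here.

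From the deposited RPKM values the ratios were taken with nothing added and no further scaling. The set, the lists of functions and the rule for named transcripts were chosen with earlier results of these data known. Named were the 10 raised and 10 lowered transcripts with the largest smaller difference, the 5 highest in each direction (in A3 if raised, in A9 if lowered), the 2 just inside and the 2 just outside the limit in each direction, any with a listed function or predicted miRNA, and any component with both directions. Functions and the printed sequences came from the supplementary tables of the study, matched by transcript name. The interval on reads planned for transcripts of known length was not made, since none of the 59 has a listed length. RPKM times length fell on whole multiples of a constant (within 0.1) for 97.4% of 38 low values in A3 and 94.7% in both A1 and A9, with constants of 73.9 in A3, 72.2 in A1 and 66.4 in A9 that give the relative depths, a lower constant meaning a deeper library. Whether 1 multiple is 1 read is not settled. The alternatives were 1 added to every RPKM, scaling by the median ratio or the upper quartile, other limits and sums per component. The scripts were tested on simulated data. Small RNA sequencing of the same lines was not analysed here. Calculations ran in Python 3.11.15 with pandas 2.3.3, numpy 2.4.6 and scipy 1.17.1, and plots in matplotlib 3.10.9.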

Additional observations from a re-analysis of the deposited data

How the results depend on the processing

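Variation between plants could not be given, and counting error only at an assumed length. At 300 bases, with 1 multiple taken as 1 read, the exact Clopper-Pearson 95% interval of A3 over A1 was 1.202 to 3.294 for comp26279_c0_seq1, the raised transcript with the lowest mean, and 0.260 to 0.871 for comp11641_c0_seq1, the lowered one with the lowest mean. At 1000 bases the intervals were 1.517 to 2.591 and 0.362 to 0.684, and all of these reach inside the 1.8-fold limit. Both transcripts were chosen by the same A3 and A1 values. The intervals therefore describe counting error at an assumed length and do not test the differences. No paired analysis was possible because each line had 1 library. The counts depended on the limits. With a minimum mean of 20 RPKM, 8 raised and 5 lowered transcripts were found, and without a minimum 2256 and 4133. A limit of 1.5-fold gave 129 raised and 112 lowered, and a limit of 2-fold gave 10 and 16. The other alternatives stayed within 1.5 times of 27 raised and 32 lowered. Adding 1 to every RPKM gave 21 and 25, with 19 and 22 of the transcripts kept. Scaling by the median ratio gave 24 and 36, and by the upper quartile 27 and 34. A1 against A9 within 1.2-fold gave 21 and 23. Sums per component gave 30 and 32 components, of which 20 and 24 held transcripts of the original sets. Those kept include the 17 raised and 20 lowered single-transcript components, where the sum is the transcript itself. Where the rest could be read, the sum passed both differences in 3 of 9 raised and 3 of 10 lowered components. It also passed in comp42884, where both transcripts were lowered. The counts in A1 alone and A9 alone stayed within 1.5 times under 1 added and both scalings, which were chosen for those counts after the data were seen. Of the 118 log2 ratios of the 59 transcripts, 21 fell short of 1.8-fold with 1 added, and 20 with sums per component. The sums could not change the ratios of the 17 raised and 20 lowered transcripts that stood alone in their components. The sum over the component reversed 1 ratio, that of comp46446_c0_seq1 for A3 over A9, which was -1.33 for the transcript and 0.12 for the component, whose other 18 transcripts make up most of the sum.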
